A study of Mus musculus with 10 samples.

Results

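10 genes that mark macrophages were followed in bulk mRNA-seq of visceral white adipose tissue (WAT) from mice wild-type or heterozygous for Mof. The genes are Adgre1, Cd68, Csf1r and Lyz2 (general macrophage and myeloid markers), Mrc1, Cd163 and Lyve1 (receptors enriched on tissue-resident macrophages), and Itgam, Itgb2 and Cd14 (surface receptors of the myeloid lineage). They were taken by symbol from a list drawn up with earlier results of these data known, and make up 10 of the 47937 genes in the count tables. All 10 were counted in the tissue and all 10 passed the filter on low counts in every comparison.

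The study asked what the histone H4 lysine 16 acetyltransferase MOF (gene Kat8) does in fat tissue and how diet changes this. Wild-type animals (Mof+/+) and Mof heterozygous animals (Mof+/-), all C57BL/6, received standard diet (SD) or high fat diet (HFD). The study's methods name the J substrain for the backcross. The SD groups hold 3 libraries per genotype from animals of 8 weeks. The HFD groups hold 2 libraries per genotype from animals of 27 weeks that had been on HFD for 20 weeks, so diet and age changed together and cannot be told apart. The labels call the libraries biological replicates without naming animals, so the p-values below measure the spread between these libraries.

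Library totals ran from 1044355 to 17171947 counts assigned to genes, with the lowest total in HFD Mof+/- replicate 1. That library stood apart: 243 of the 4424 genes with at least 20 CPM (counts scaled to a common library total) in every other library had no count in it, mitochondrial genes took 26.9% of its counts, and 16 skeletal muscle genes summed to 78426 CPM against 1923 CPM in HFD Mof+/- replicate 2 and at most 99.0 CPM elsewhere. The fits that use it were repeated without it. Kat8 was at 20.4 to 21.5 CPM in SD Mof+/+, 11.5 to 18.8 CPM in SD Mof+/-, 18.1 and 19.2 CPM in HFD Mof+/+, and 20.1 and 10.5 CPM in HFD Mof+/-. Xist was counted in the 3 SD Mof+/- libraries only, and Ddx3y, Eif2s3y, Kdm5d and Uty had no count there, so sex and genotype cannot be told apart on SD, nor sex and diet in Mof+/-. Column names in the SD files of replicate 3 give the opposite genotype to the labels, which were followed here. Kat8 was at 20.4 CPM in the library labelled SD Mof+/+ replicate 3 and 11.5 CPM in that labelled SD Mof+/- replicate 3, and Xist and the Y-linked genes also placed each with its labelled group.

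Macrophages are among the most numerous immune cells of visceral fat. In lean tissue most of them are long-lived resident cells that lie along vessels and carry scavenger and endocytic receptors, and in obesity monocyte-derived cells that gather around dying adipocytes join them. Adgre1 encodes the surface receptor F4/80, Cd68 a lysosomal membrane protein, Csf1r the receptor for the growth factors CSF1 and IL-34, and Lyz2 lysozyme. Mrc1 encodes the mannose receptor CD206, Cd163 the haptoglobin-haemoglobin receptor, and Lyve1 a hyaluronan receptor that lymphatic endothelial cells also carry. Itgam (CD11b) and Itgb2 (CD18) encode the chains of complement receptor 3, and Cd14 a co-receptor for lipopolysaccharide.

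The 100 bases before the RefSeq start (build GRCm38.p6) are shown for 5 of the 10 members, 5′ to 3′ on the gene's strand. These 5 include the lowest and the highest diet responses in Mof+/+. That the other members are not shown does not mean that they lack a promoter window. The RefSeq starts differ from those of GENCODE M21, used here for symbols and lengths. By the latter, the windows of Mrc1 and Lyz2 reach into the gene. Capitals mark GAGGAA or its reverse complement, the purine-rich core bound by the myeloid ETS factor PU.1; both strands were searched. These letters occur in 9.82% of the 32851 promoter windows of this length.
Itgam (chr7:128062540-128062639, plus strand): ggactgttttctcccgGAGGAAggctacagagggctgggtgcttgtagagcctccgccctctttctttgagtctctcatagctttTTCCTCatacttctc
Mrc1 (chr2:14229314-14229413, plus strand): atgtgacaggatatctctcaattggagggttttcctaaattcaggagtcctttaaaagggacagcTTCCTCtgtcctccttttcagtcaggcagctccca
Cd163 (chr6:124304551-124304650, plus strand): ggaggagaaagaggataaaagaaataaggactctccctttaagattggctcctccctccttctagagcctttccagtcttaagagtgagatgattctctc
Cd68 (chr11:69666171-69666270, minus strand): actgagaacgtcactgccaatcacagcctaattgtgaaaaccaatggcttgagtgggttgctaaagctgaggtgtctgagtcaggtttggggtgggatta
Lyz2 (chr10:117282273-117282372, minus strand): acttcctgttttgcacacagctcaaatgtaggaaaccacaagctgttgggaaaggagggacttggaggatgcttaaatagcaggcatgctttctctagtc
Itgam held the letters on each strand, Mrc1 on the minus strand, and Cd163, Cd68 and Lyz2 did not hold them in this window. In the 250 bases before the start, where 23.3% of all windows held the letters, Cd68 held them as well. These are matches of letters only and were not tested against the expression values.

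**Figure D1:**
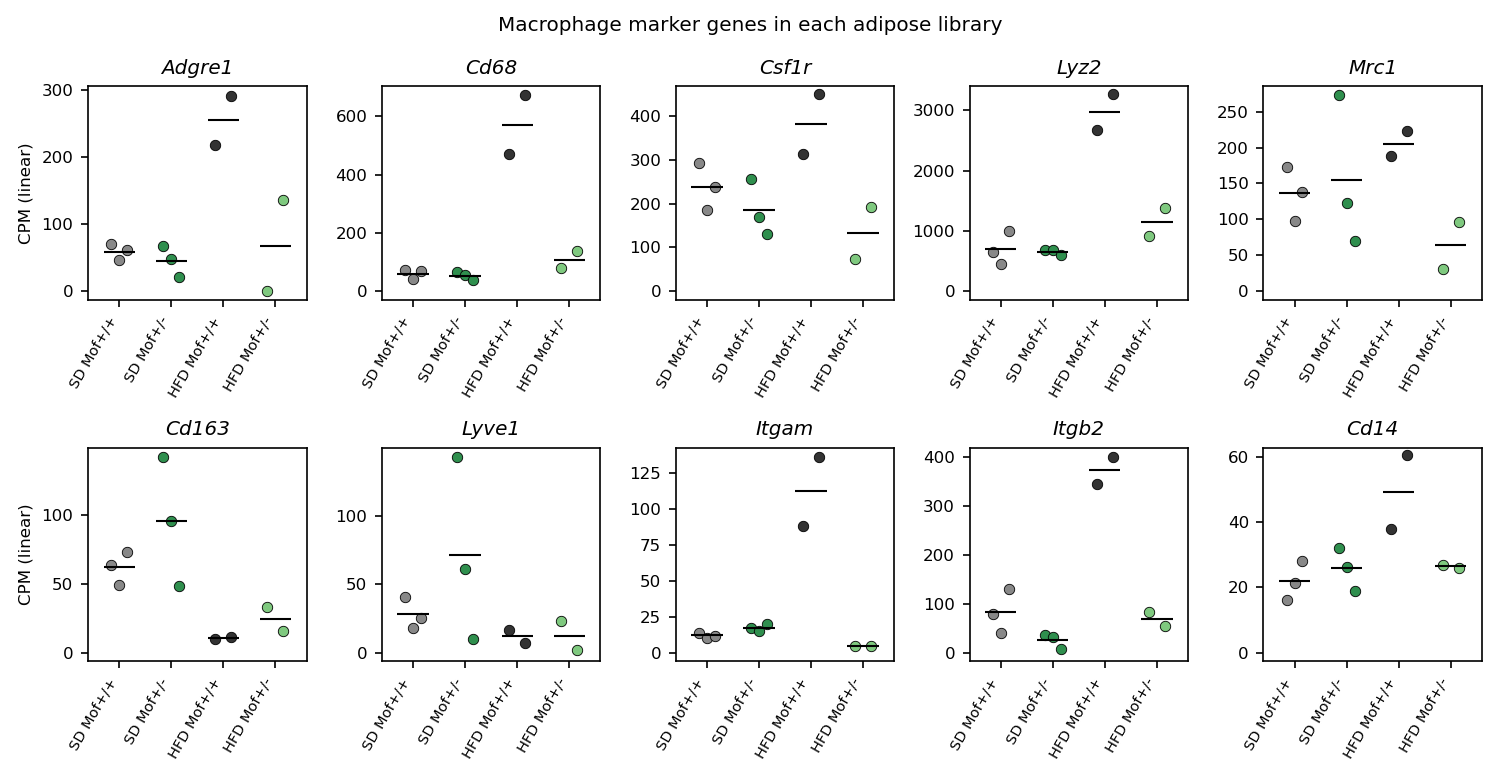
CPM (linear axis) of the 10 macrophage marker genes in each library, with points in replicate order from left to right and a line at the group mean (n = 3, 3, 2 and 2). In 8 panels the HFD Mof+/+ libraries lie above the SD Mof+/+ libraries, in the Cd163 and Lyve1 panels they lie below, and Itgam is near 5 CPM in both HFD Mof+/- libraries.

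Among the general markers, Adgre1 was at 70.4, 46.2 and 60.9 CPM in SD Mof+/+, 67.7, 47.5 and 21.3 CPM in SD Mof+/-, 217.9 and 290.7 CPM in HFD Mof+/+, and 0 and 135.6 CPM in HFD Mof+/-. The HFD Mof+/+ libraries were the highest of all, HFD Mof+/- replicate 2 lay between them and the SD libraries, and replicate 1 was the lowest. At the level of HFD Mof+/- replicate 2, replicate 1 would have held 142 Adgre1 counts where it held 0, which allows at most 2.87 CPM by counting error. Cd68 was at 72.2, 40.7 and 69.6 CPM in SD Mof+/+, 66.7, 55.9 and 39.6 CPM in SD Mof+/-, 469.3 and 672.6 CPM in HFD Mof+/+, and 78.5 and 139.2 CPM in HFD Mof+/-. Unlike Adgre1, it was above every SD library in both HFD Mof+/- libraries, though far below HFD Mof+/+.

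Csf1r was at 293.4, 185.3 and 237.5 CPM in SD Mof+/+, 255.4, 169.1 and 130.1 CPM in SD Mof+/-, 313.7 and 449.6 CPM in HFD Mof+/+, and 72.8 and 192.7 CPM in HFD Mof+/-. Its range over the groups was narrower than that of Cd68, and HFD Mof+/- overlapped SD Mof+/-. Lyz2 was at 656.9, 453.6 and 1000.5 CPM in SD Mof+/+, 687.3, 677.5 and 602.4 CPM in SD Mof+/-, 2679.7 and 3260.9 CPM in HFD Mof+/+, and 915.4 and 1382.7 CPM in HFD Mof+/-. The SD genotypes overlapped and the HFD genotypes did not. Its neighbouring paralog Lyz1 did not share this course, with 72.2 to 86.9 CPM in SD Mof+/+, 12.6 to 40.6 CPM in SD Mof+/-, 59.4 and 34.0 CPM in HFD Mof+/+, and 0 and 16.1 CPM in HFD Mof+/-. The coding sequences of the pair are identical at 422 of 444 bases, and 24 of the 1217 windows of 100 bases in the Lyz2 transcript also occur in Lyz1, so a small part of their reads cannot be assigned to one gene.

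Among the resident-type receptors, Mrc1 was at 173.6, 98.2 and 138.2 CPM in SD Mof+/+, 273.5, 122.2 and 70.3 CPM in SD Mof+/-, 188.2 and 222.8 CPM in HFD Mof+/+, and 31.6 and 96.7 CPM in HFD Mof+/-. Cd163 was at 63.9, 49.0 and 73.4 CPM in SD Mof+/+, 142.6, 95.5 and 48.6 CPM in SD Mof+/-, 9.82 and 11.2 CPM in HFD Mof+/+, and 33.5 and 16.1 CPM in HFD Mof+/-. It was thus lowest where Adgre1 and Cd68 were highest, and every HFD library lay below every SD library. Lyve1 was at 41.0, 18.1 and 25.2 CPM in SD Mof+/+, 142.6, 61.1 and 10.1 CPM in SD Mof+/-, 16.8 and 7.24 CPM in HFD Mof+/+, and 23.0 and 2.17 CPM in HFD Mof+/-. SD Mof+/- spanned the widest range for all of these receptors, always with replicate 1 highest and replicate 3 lowest.

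Among the integrin chains, Itgam was at 13.9, 10.3 and 11.9 CPM in SD Mof+/+, 17.2, 15.3 and 20.1 CPM in SD Mof+/-, 88.2 and 136.1 CPM in HFD Mof+/+, and 4.79 and 4.70 CPM (5 and 26 counts) in HFD Mof+/-. No group of Itgam overlapped another, and HFD Mof+/- was the lowest. Itgb2, its partner chain, was at 78.8, 39.7 and 130.9 CPM in SD Mof+/+, 36.0, 32.6 and 6.99 CPM in SD Mof+/-, 345.2 and 399.1 CPM in HFD Mof+/+, and 82.3 and 54.8 CPM in HFD Mof+/-. In Mof+/-, both HFD libraries of Itgb2 were above all SD libraries and both of Itgam below them. Cd14 was at 16.1, 21.5 and 28.01 CPM in SD Mof+/+, 32.2, 26.4 and 19.0 CPM in SD Mof+/-, 37.9 and 60.6 CPM in HFD Mof+/+, and 26.8 and 26.0 CPM in HFD Mof+/-. In the annotation, exons of the gene model Gm49368 on the same strand cover 68.7% of the exonic bases of Itgam, and exons of Hmgxb3 on the opposite strand cover 15.1% of those of Csf1r. Over all libraries Gm49368 held 5 counts and Hmgxb3 2202, so few reads were assigned to Gm49368. Reads there can be left uncounted or split, since the counting options are given only as the defaults of a pipeline. The levels of Itgam and Csf1r may therefore be understated.

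Per kb of exon, Lyz2 was the most abundant member in every group, at 535 ± 210 CPM per kb in SD Mof+/+ (SD, n = 3), 498 ± 35.3 in SD Mof+/- (n = 3), 2257 ± 312 in HFD Mof+/+ (n = 2) and 873 ± 251 in HFD Mof+/- (n = 2). Cd68 came second in every group, at 48.4 ± 13.9 CPM per kb in SD Mof+/+ and 454 ± 114 CPM per kb in HFD Mof+/+. Lyz2 did not overlap Cd68 in any group, whereas on SD each gene from Cd68 down to the eighth place overlapped the next in order. Itgb2 ranked next in HFD Mof+/+ at 122 ± 12.5 CPM per kb, followed by Adgre1 at 78.5 ± 15.9 and Csf1r at 66.1 ± 16.6, which overlapped each other. Over its full exon length Itgam was the lowest in SD Mof+/+ (2.39 ± 0.364 CPM per kb), SD Mof+/- (3.49 ± 0.483) and HFD Mof+/- (0.944 ± 0.0123, overlapping Lyve1), and Cd163 was the lowest in HFD Mof+/+ (1.92 ± 0.176). The place of Itgam in this order is uncertain, since it depends on whether reads in the exons shared with Gm49368 were counted.

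**Figure D2:**
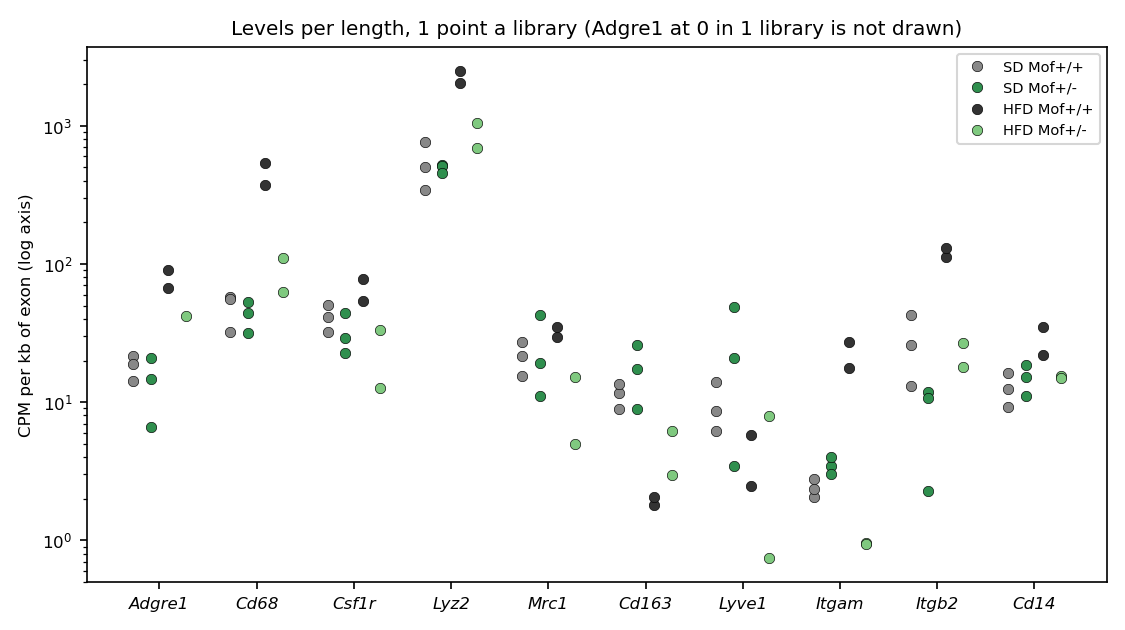
CPM per kb of exon (log axis) of each member, 1 point per library, coloured by group. Lyz2 lies above every other member in each group, and Itgam, over its full exon length, moves from the bottom of the SD groups to 22.3 CPM per kb (mean) in HFD Mof+/+.

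The first comparison set HFD against SD within Mof+/+. Cd68, Itgam, Itgb2, Adgre1, Lyz2 and Cd14 rose, Cd163 fell, and Csf1r, Mrc1 and Lyve1 did not pass the test. With edgeR's quasi-likelihood test and Benjamini-Hochberg adjustment over all genes, 6 of the 10 members were called higher and 1 lower, where 6.02% of all 14939 genes tested were called higher and 3.73% lower. Their median log2 fold change was 1.76, against -0.04 over all genes tested. All 10 separated the diets in CPM without overlap, 8 of them higher (21% of all genes) and 2 lower (28.2% of all genes). In bulk tissue, a change in the number of macrophages and a change in the RNA that each cell holds cannot be told apart.

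Cd68 showed the highest fold, 10.3-fold (log2 3.36, SE 0.30, adjusted p = 0.00321 by edgeR), next to Itgam at 10.2-fold (log2 3.35, SE 0.26, adjusted p = 0.00303 by edgeR). Itgb2 rose 4.91-fold (adjusted p = 0.0235 by edgeR), Adgre1 4.70-fold (adjusted p = 0.00534) and Lyz2 4.63-fold (adjusted p = 0.0122). Cd14 rose 2.46-fold with the weakest support among the called members (adjusted p = 0.0486 by edgeR). Cd163 fell by 2.44 on the log2 scale (SE 0.26, adjusted p = 0.00543 by edgeR), to 0.185 of its SD level. The log2 fold change was 0.81 for Csf1r (SE 0.25, adjusted p = 0.0921 by edgeR), 0.72 for Mrc1 (SE 0.25, adjusted p = 0.118) and -1.10 for Lyve1 (SE 0.49, adjusted p = 0.194). When HFD Mof+/+ replicate 2 was left out, with the lone replicate 1 assumed to vary like the SD libraries, only Cd68 and Itgam stayed called, where 0.384% of all genes were called. 5 members were called without HFD Mof+/+ replicate 1 (1.49% of all genes) and 4 without SD Mof+/+ replicate 1 (1.63% of all genes). A fit of all 10 libraries together called Cd68, Itgam and Lyz2 only (0.893% of all genes were called), and with replicate 3 of each SD group placed by column name, against its Kat8 and Xist levels, no member and no other gene was called by edgeR. Other measures moved with this comparison. By edgeR at an unadjusted p under 0.05, all 7 blood endothelium and all 6 myelin and glia markers were lower on HFD. Of all 14939 genes tested, 4238 passed this threshold in either direction. After adjustment edgeR called 3 of each list lower (3.73% of all genes). The myelin and glia markers summed to 1111 CPM in SD Mof+/+ replicate 2, against 111 and 155 CPM in replicates 1 and 3. The part of these markers in the comparison was not tested. The rank correlation of a gene's deviation with its length was 0.33 to 0.39 over the SD Mof+/+ libraries. Over the HFD Mof+/+ libraries it was 0.09 and -0.0059. With the length trend removed, 6 members remained called, Cd14 not among them, and 7.13% of all genes.

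The same diet comparison within Mof+/- called none of the 10 members by edgeR (0% of 13610 genes tested), and none by DESeq2 (2.93% of all genes). At an unadjusted p under 0.05, 2 members passed, Cd68 above and Cd163 below their SD level, where 8.57% of all genes did. In CPM, Cd68, Itgb2 and Lyz2 lay above every SD Mof+/- library without overlap (9.88% of all genes), and Cd163 and Itgam lay below (17.7% of all genes). The log2 fold change was 1.004 for Cd68 (SE 0.42, adjusted p = 0.566 by edgeR), 1.495 for Itgb2 (SE 0.68, adjusted p = 0.594), -1.92 for Cd163 (SE 0.62, adjusted p = 0.473), -1.90 for Itgam (SE 0.88, adjusted p = 0.602) and -2.52 for Lyve1 (SE 1.29, adjusted p = 0.645). Adgre1 could not be placed, with 0.54 and an SE of 1.26 set by the library without a count. None of the members was called without HFD Mof+/- replicate 1 either (0.0768% of all genes were), and without replicate 2 only Adgre1 was called, on its 0 count (13.8% of all genes were). The values moved with the library left out. Lyve1 was at -5.12 without replicate 1 and -1.50 without replicate 2, and Cd163 at -2.67 and -1.39. Without replicate 1, the log2 fold change was 1.25 for Cd68, 1.02 for Itgb2, 0.96 for Lyz2, -2.02 for Itgam and 1.47 for Adgre1, with adjusted p from 0.395 to 0.727 by edgeR.

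**Figure D3:**
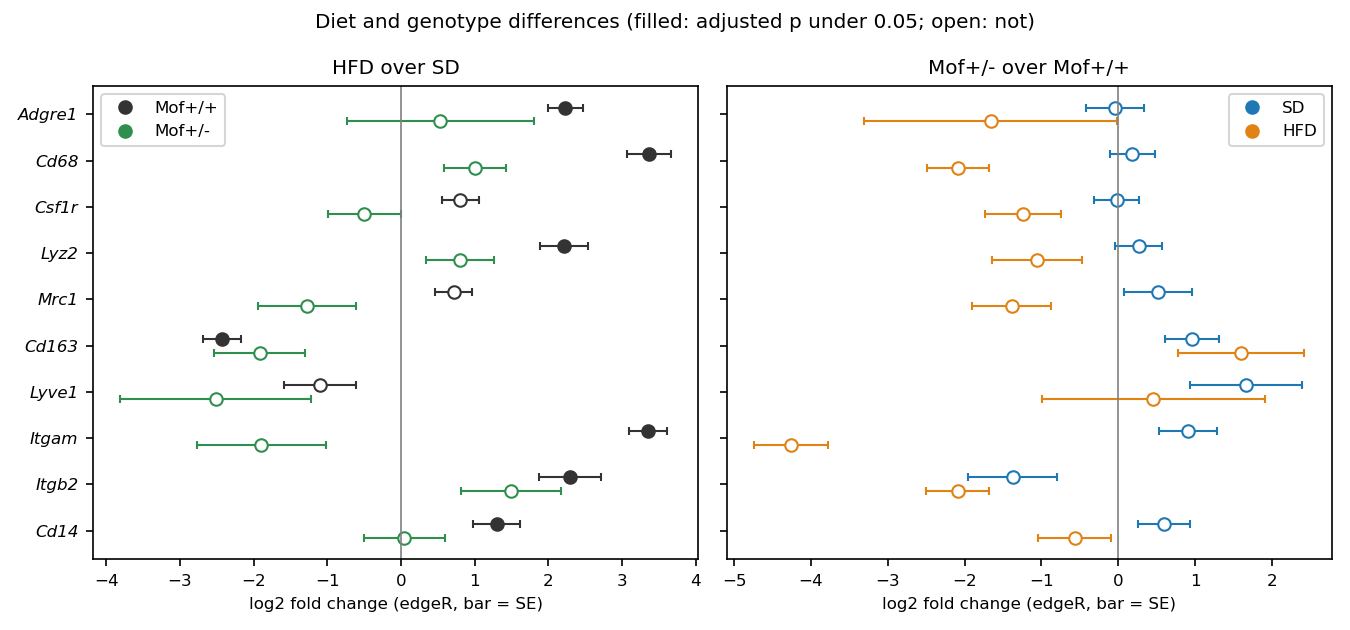
Log2 fold change (edgeR, bars are SE) of HFD over SD within each genotype on the left and of Mof+/- over Mof+/+ within each diet on the right, filled where the adjusted p is under 0.05. The 7 filled points all belong to the diet comparison in Mof+/+, and Itgam has the widest separation of the genotypes on the left, 3.35 against -1.90.

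The difference between these diet responses was tested as an interaction of genotype and diet in the 10 libraries together. Itgam passed, with a log2 difference of -5.27 (SE 0.61, adjusted p = 0.00669 by edgeR): its HFD level was above SD in Mof+/+ and below it in Mof+/-. Itgam was the 1 member called lower, where 0.0629% of 15897 genes were. The interaction of Cd68 was -2.36 (SE 0.51, adjusted p = 0.126 by edgeR), that of Mrc1 -1.99 (SE 0.76, adjusted p = 0.334) and that of Lyz2 -1.42 (SE 0.52, adjusted p = 0.321), and these 3 with Csf1r and Itgam make 5 members at an unadjusted p under 0.05, where 12.4% of all genes were. The interaction of Cd163 was 0.48 (SE 0.67, adjusted p = 0.816 by edgeR), so that its lower level on HFD was not shown to differ between the genotypes. Without HFD Mof+/- replicate 1 the interaction was -5.32 for Itgam (adjusted p = 0.00516 by edgeR), -2.06 for Cd68 (adjusted p = 0.146), -1.46 for Mrc1 (adjusted p = 0.475), -1.21 for Lyz2 (adjusted p = 0.387) and -0.19 for Cd163 (adjusted p = 0.980). Without replicate 2 it was -5.13 for Itgam (adjusted p = 0.00167). Each of these fits leaves 1 HFD Mof+/- library, which is assumed to vary like the other groups. Itgam lost the call without HFD Mof+/+ replicate 1 (-5.52, adjusted p = 0.0512) or replicate 2 (-4.87, adjusted p = 0.220), and with the SD libraries grouped by column name (-4.36, adjusted p = 0.408). Only SD Mof+/- carried Xist, so a part of sex in the interaction cannot be told apart.

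Between the genotypes on SD none of the 10 members was called by edgeR, where 5.24% of 13864 genes were, and none by DESeq2, where 15.9% were. At an unadjusted p under 0.05, 3 members passed (25.7% of all genes did), Cd163 and Itgam higher in Mof+/- and Itgb2 lower. The 3 SD Mof+/- libraries of Itgam lay above the SD Mof+/+ libraries without overlap (9.71% of all genes), with a log2 fold change of 0.91 (SE 0.37, adjusted p = 0.169 by edgeR). Those of Itgb2 lay below (30.6% of all genes), with -1.38 (SE 0.58, adjusted p = 0.178), but overlapped after normalization, which moved Mof+/- up by 0.37 (log2) against Mof+/+. Cd163 had a log2 fold change of 0.96 (SE 0.35, adjusted p = 0.132 by edgeR) and Lyve1 of 1.66 (SE 0.73, adjusted p = 0.195). Both passed the threshold without SD Mof+/- replicate 3 (Cd163 1.26, adjusted p = 0.0407, and Lyve1 2.18, adjusted p = 0.0368, by edgeR), where 4.51% of all genes were called. Lyve1 (adjusted p = 0.0267) and Itgb2 (adjusted p = 0.0441) also passed by edgeR without the filter on low counts, where 8.35% of all genes were called. The log2 fold change was -0.04 for Adgre1 (SE 0.38), -0.02 for Csf1r (SE 0.29), 0.18 for Cd68 (SE 0.29) and 0.26 for Lyz2 (SE 0.30), with adjusted p from 0.629 to 0.971 by edgeR. Gene length moved with the libraries here: the rank correlation of a gene's deviation with its length ran from 0.33 to 0.39 over the SD Mof+/+ libraries and was 0.13, -0.18 and -0.38 in SD Mof+/-. With that trend removed, the values of Cd68 and Lyz2 turned to -0.53 and -0.46 and that of Csf1r to 0.24, so these have no direction that holds.

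Between the genotypes on HFD, 8 of the 10 members were lower in both Mof+/- libraries than in both Mof+/+ libraries (45.6% of all genes were), 1, Cd163, was higher (8.82% of all genes were), and Lyve1 overlapped. None was called by edgeR, as none of the 14120 genes tested was (0%), and 1, Itgam, by DESeq2, which called 1.48% of all genes. At an unadjusted p under 0.05, 4 members were lower (12.3% of all genes passed in either direction). Itgam had a log2 fold change of -4.26 (SE 0.48), Cd68 of -2.09 (SE 0.40), Itgb2 of -2.09 (SE 0.41) and Mrc1 of -1.39 (SE 0.51), with adjusted p from 0.278 to 0.387 by edgeR. The members' median was -1.31, against -0.24 over all genes tested. The rank correlation of a gene's deviation with its length was 0.09 and -0.0059 in HFD Mof+/+ and -0.11 and -0.20 in HFD Mof+/-. With that trend removed, the median over all genes was 0.27, and edgeR again called none of them.

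This comparison depends on each HFD Mof+/- library. Without HFD Mof+/- replicate 1, with the lone replicate 2 assumed to vary like the HFD Mof+/+ libraries, edgeR called 7 members, all lower, where 27.2% of 15932 genes were called in either direction. They were Itgam (-4.41, adjusted p = 1.09e-06), Itgb2 (-2.60, adjusted p = 1.77e-05), Lyve1 (-2.30, adjusted p = 0.0109), Cd68 (-1.87, adjusted p = 0.000454), Lyz2 (-0.93, adjusted p = 0.0344), Mrc1 (-0.92, adjusted p = 0.0143) and Csf1r (-0.82, adjusted p = 0.0433), as log2 fold changes by edgeR. The other members were Cd163 at 0.78 (adjusted p = 0.103 by edgeR), Cd14 at -0.75 (adjusted p = 0.0797) and Adgre1 at -0.74 (adjusted p = 0.0508). Without replicate 2, so with the library that stood apart alone, edgeR called 9 members, where 47.9% of 15761 genes were called: Cd163 (2.07) and Lyve1 (1.33) higher, and Itgam, Cd68, Mrc1, Csf1r, Itgb2, Lyz2 and Adgre1 lower. Lyve1 thus had opposite signs in the pair of libraries. The part of the muscle and mitochondrial RNA of replicate 1 in these levels was not tested beyond leaving those genes out of the normalization, which changed no call. Replicate 2 also differed from HFD Mof+/+ in other markers. Muscle genes summed to 1923 CPM against 49.7 and 49.8 CPM, and adipocyte markers to 37419 against 20428 and 18759 CPM. Mesothelium markers summed to 0.904 against 84.2 and 35.7 CPM. Blood endothelium markers lay within the HFD Mof+/+ range. The part of these markers was not tested.

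Ratios within a library do not depend on its total. They can still carry the trend with gene length, which was not removed from any ratio given here. Exons cover 1.26 kb in Cd68, 3.24 kb in Adgre1 and 5.46 kb in Cd163. The log2 ratio of Cd163 to Adgre1 was -0.14, 0.09 and 0.27 in SD Mof+/+, 1.07, 1.01 and 1.19 in SD Mof+/-, and -4.47 and -4.70 in HFD Mof+/+. The 3 groups did not overlap, with Mof+/- above Mof+/+ on SD by 1.02 (two-sided exact permutation p = 0.1, the smallest that 3 against 3 allows). The ratios of Itgam and Mrc1 to Adgre1 were likewise above on SD without overlap, by 1.06 and 0.51 (exact permutation p = 0.1 each). For Cd163, HFD was below SD in Mof+/+, by a difference of -4.66 (exact permutation p = 0.2, the smallest that 2 against 3 allows). Over the 14 ratios tested the smallest adjusted p was 0.28, so none could pass. In the same diet comparison the log2 ratio to Adgre1 differed by -3.38 for Lyve1, -1.49 for Mrc1 and -1.43 for Csf1r, by 1.14 for Cd68 and 1.09 for Itgam, each without overlap, and by 0.03 for Lyz2, which overlapped. These differences are descriptions, since no test of them could pass.

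Cd68 served as denominator where Adgre1 had no count. The log2 ratio of Cd163 to Cd68 was -0.18, 0.27 and 0.08 in SD Mof+/+, 1.10, 0.77 and 0.30 in SD Mof+/-, -5.58 and -5.91 in HFD Mof+/+, and -1.23 and -3.11 in HFD Mof+/-. Both HFD Mof+/- libraries thus lay between the SD libraries and HFD Mof+/+. The log2 ratio of Mrc1 to Cd68 was 0.99 to 1.27 in SD Mof+/+ and 0.83 to 2.04 in SD Mof+/-, against -1.32 and -1.59 in HFD Mof+/+ and -1.31 and -0.53 in HFD Mof+/-. Lyve1 to Cd68 had the same order of diets in Mof+/+ (-0.82 to -1.47 on SD, -4.80 and -6.54 on HFD), but the HFD Mof+/- libraries were far apart, at -1.77 and -6.00.

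**Figure D4:**
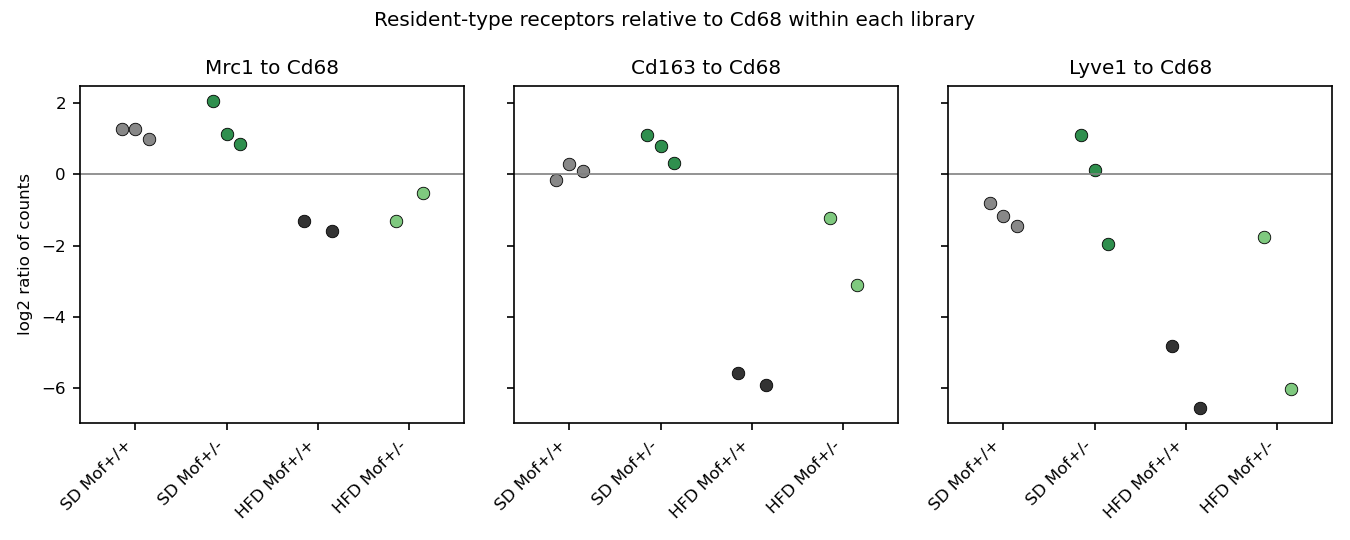
Log2 ratio of counts of Mrc1, Cd163 and Lyve1 to Cd68 in each library by group, in replicate order from left to right. The HFD Mof+/+ points lie below all SD points in the 3 panels, and for Cd163 the HFD Mof+/- points, -1.23 and -3.11, lie in between.

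The partners of these genes were read from a list of 24 ligands, transcription factors, adaptors and co-receptors. In Mof+/+, 9 of the 23 tested rose with HFD by edgeR and 0 fell, where 6.02% of all genes were called higher and 3.73% lower. DESeq2 called 11 higher and 0 lower, where it called 10.1% of all genes higher and 9.81% lower. The median log2 fold change was 0.98 over the list. The smallest adjusted p belonged to Itgax (CD11c, another partner chain of Itgb2; log2 4.17, SE 0.26, adjusted p = 0.00178), Fcer1g (2.81, SE 0.22, adjusted p = 0.00303) and Tyrobp (3.15, SE 0.36, adjusted p = 0.0065), and the latter pair are signalling adaptors of myeloid receptors. Itgax went from 11.8 to 19.7 CPM in SD Mof+/+ to 223.5 and 279.3 CPM in HFD Mof+/+, and was at 36.4 and 41.8 CPM in HFD Mof+/-. Unlike Itgam, it was therefore above all SD Mof+/- libraries (2.21 to 11.2 CPM) on HFD. None of the list was called by edgeR between the genotypes on SD, where 4 of 22 passed an unadjusted p of 0.05 (25.7% of all genes did) and DESeq2 called 2 (15.9% of all genes). None was called on HFD either, where 8 of 24 passed unadjusted (12.3% of all genes) and DESeq2 called 1 (1.48% of all genes). Between the diets in Mof+/- and in the interaction, again none was called, with 5 of 24 in each passing unadjusted (8.57% and 12.4% of all genes) and 1 and 2 called by DESeq2 (2.93% and 3.06% of all genes). Without HFD Mof+/- replicate 1, edgeR called 12 of 24 lower and 1 higher between the genotypes on HFD (17% and 10.2% of all genes), and none between the diets in Mof+/- or in the interaction.

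A further 26 macrophage genes gave a like count in Mof+/+, where 10 of 26 were called higher on HFD and 0 lower by edgeR (6.02% and 3.73% of all genes), and 11 higher and 2 lower by DESeq2 (10.1% and 9.81% of all genes). They were led by Ms4a7 (log2 3.69, SE 0.31, adjusted p = 0.00307), Cd300a (3.77, SE 0.31, adjusted p = 0.00307) and Fcgr3 (2.74, SE 0.26, adjusted p = 0.00368), a membrane-spanning protein, an inhibitory receptor and an Fc receptor. On SD, 4 of the 25 tested were called higher in Mof+/- and 0 lower by edgeR, where 5.24% of all genes were called in either direction, with a median of 0.34. DESeq2 called 7 higher and 1 lower, where it called 15.9% of all genes in either direction. In the same comparison, edgeR called 4 of 7 adipocyte and 4 of 6 mesothelium markers higher and 4 of 7 blood endothelium markers lower in Mof+/-, and their part in these values was not tested. Folr2, a folate receptor of resident macrophages, had a log2 fold change of 1.92 (SE 0.30, adjusted p = 0.0246 by edgeR) and went from 35.0 to 68.1 CPM in Mof+/+ to 118.2 to 173.1 CPM in Mof+/-. Cbr2, a carbonyl reductase, rose by 1.31 (SE 0.22, adjusted p = 0.029 by edgeR) and Retnla, a secreted protein of alternatively activated macrophages, by 2.02 (SE 0.36, adjusted p = 0.0303). The fourth, Cd209f, a lectin receptor, rose by 2.01 (SE 0.38, adjusted p = 0.034) and is named beside the others to complete the count. Within SD Mof+/-, Retnla was at 714, 826 and 1511 CPM, so highest in replicate 3, where Adgre1 was lowest. Folr2, Cbr2 and Cd209f were highest in replicate 1. Folr2 also rose with HFD in Mof+/+ (1.69, SE 0.30, adjusted p = 0.0213 by edgeR), where Cd163 fell. None of these genes was called by edgeR on HFD between the genotypes (9 of 26 at an unadjusted p under 0.05, against 12.3% of all genes, and 1 by DESeq2 against 1.48%), in Mof+/- between the diets (10 of 26 against 8.57%, and 4 by DESeq2 against 2.93%), or in the interaction (12 of 26 against 12.4%, and 6 by DESeq2 against 3.06%). Without HFD Mof+/- replicate 1, edgeR called 11 of 26 lower between the genotypes on HFD, where 17% of all genes were, and none between the diets in Mof+/- or in the interaction.

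Lymphatic endothelium also expresses Lyve1. Its 6 listed markers summed to 91.8 to 152 CPM in SD Mof+/+, 50.7 to 78.4 CPM in SD Mof+/-, 58.6 and 74.8 CPM in HFD Mof+/+, and 59.4 and 19.0 CPM in HFD Mof+/-. Between the diets in Mof+/+, Prox1, Flt4, Mmrn1 and Reln fell and Pdpn rose of the 5 tested (adjusted p from 0.0184 to 0.0317 by edgeR, where 3.73% of all genes were called lower and 6.02% higher). Prox1, the defining factor of the lineage, was at 5.48 to 10.5 CPM on SD and 0.452 and 0.437 CPM on HFD. Their part in the lower Lyve1 on HFD was not tested. On SD, 4 of the 5 tested had lower values in Mof+/-, and edgeR called Flt4 lower (-1.87, adjusted p = 0.0394) and Pdpn higher (1.36, adjusted p = 0.0395), where 5.24% of all genes were called. Mmrn1 (-1.52) and Reln (-2.11) passed only at an unadjusted p under 0.05 (25.7% of all genes did), and DESeq2 called 3 lower and 1 higher (15.9% of all genes). In SD Mof+/- replicate 1, where Lyve1 was highest, Prox1 was at 1.57 CPM, below all SD Mof+/+ libraries, and Pdpn at 50.2 CPM, above all of them. Their part in the Lyve1 level on SD was not tested.

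Markers of other leukocytes that share member genes were also read. The 9 neutrophil markers, whose cells carry Itgam and Itgb2, summed to 19.2 to 39.2 CPM in SD Mof+/+, 7.22 to 59.0 CPM in SD Mof+/-, 40.7 and 49.0 CPM in HFD Mof+/+, and 0 and 43.4 CPM in HFD Mof+/-. Their part in the Itgam level was not tested. The 7 monocyte markers summed to 586 to 947 CPM, 311 to 1076 CPM, 840 to 903 CPM and 167 to 204 CPM in the same order of groups. Fn1, which other cells also express, made up 684 and 767 CPM of the sums in HFD Mof+/+, whereas Ly6c2, a defining gene of classical monocytes, was at 10.3 and 6.74 CPM in HFD Mof+/+ and 50.7 and 24.0 CPM in HFD Mof+/-, and Ccr2 at 94.7 and 82.3 CPM and 8.62 and 13.6 CPM. Genes of the list thus lay in opposite orders between the genotypes on HFD, and none of these 3 was called by edgeR. DESeq2 called 2 of the 7 listed lower in HFD Mof+/- (1.48% of all genes were called). The 7 T and NK cell markers, whose cells carry Itgb2, summed to 14.6, 14.0 and 329 CPM in SD Mof+/+, 5.12 to 18.4 CPM in SD Mof+/-, 41.7 and 33.5 CPM in HFD Mof+/+, and 5.75 and 29.1 CPM in HFD Mof+/-. SD Mof+/+ replicate 3 also had the highest Itgb2 of the SD libraries, while the other two SD Mof+/+ libraries had sums within the range of SD Mof+/-. Their part in the Itgb2 level was not tested.

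The mean profile of the 10 members, which Cd163 and Lyve1 do not follow, was matched against 9748 genes with a mean of at least 10 CPM, by the root mean square distance between Z-scores of log2 CPM over the 10 libraries. The nearest genes were Man1c1 (distance 0.43), Arpc1b (0.43), Plxnb2 (0.43), Mitf (0.44) and Snx1 (0.45). Among the members themselves, Csf1r lay nearest to the mean profile (0.50) and Lyve1 (1.06) and Cd163 (1.27) lay farthest from it.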

How the data were processed

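RNA of visceral WAT was sequenced by the authors as paired reads of 100 bases from TruSeq libraries and mapped to GRCm38 with STAR and counted per gene with featureCounts (Subread 1.5.0-p1) by the default snakePipes workflow. The deposited files hold raw counts per gene and library, not normalized. Versioned Ensembl identifiers were matched to symbols and lengths with GENCODE M21 (47224 of 47937 matched). CPM were computed from these counts. Tests used edgeR 4.0.16 (TMM, filterByExpr, quasi-likelihood F test, Benjamini-Hochberg over all genes tested, threshold 0.05) in R 4.3.3, with each comparison fitted on its own groups. SE is the log2 fold change divided by the root of F. The scripts were first tested on simulated data with less spread between libraries than in these data. That does not show how often the fits err here. DESeq2 1.42.0, other normalizations and filters, a replicate block, a length correction and leaving out each library were alternatives.

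All members were named. Of the partner and other macrophage lists, up to 3 genes of smallest adjusted p per comparison were named. Cd209f on SD and Folr2 between the diets in Mof+/+ were named besides. Genes of the cell type lists were named for their levels or calls, without this rule. Members and lists were chosen with earlier results of these data known. Ratios to Adgre1 were planned for 4 pairs of groups and tested in the pairs without HFD Mof+/-, since Adgre1 has no count in 1 of its libraries. The floor for a gene without counts was 3 counts (2.87 CPM in the shallowest library) and covers only the error of counting. Whether counting used strand is not given in the sources used here. The study's methods state male animals, younger than the labels' HFD groups, and its text gives a longer feeding time.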

Additional observations from a re-analysis of the deposited data

Results flagged for a closer look

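Itgam differed between the genotypes in its response to diet, with a genotype by diet interaction of -5.27 on the log2 scale (adjusted p = 0.00669 by edgeR's quasi-likelihood test): both HFD Mof+/- libraries were below all SD Mof+/- libraries, and both HFD Mof+/+ libraries above all SD Mof+/+ libraries. The call was lost without HFD Mof+/+ replicate 1 (adjusted p = 0.0512 by edgeR), without HFD Mof+/+ replicate 2 (adjusted p = 0.220) and with the SD libraries grouped by column name (adjusted p = 0.408). Only SD Mof+/- carried Xist, so a part of sex in this difference cannot be told apart.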

How the results depend on the processing

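Alternatives changed how many members passed rather than most directions: of 724 recomputed member fold changes, 639 kept direction and side of the threshold, 36 passed newly, 26 no longer passed and 23 reversed. Without the filter on low counts, 2 members were called between genotypes on SD (main 0; 8.35% of all genes), 1 between diets in Mof+/- (main 0; 2.1% of all genes) and 2 in the interaction (main 1; 1.62% of all genes). DESeq2 called 1 between genotypes on HFD (main 0; 1.48% of all genes) and 2 in the interaction (3.06%). A minimum of 10 counts in every library left 0 in the interaction, since Itgam was removed. All 10 libraries in 1 fit gave 1 between genotypes on HFD (0.00629% of all genes) and 3 between diets in Mof+/+ (main 7; 0.893%). Grouping by column name, added after seeing the data, gave 0 between diets in Mof+/+ and 0 in the interaction. Leaving out each library gave 0 to 2 members on SD (2 without SD Mof+/- replicate 3, with 4.51% of all genes), 0 to 9 on HFD (7 and 9 without HFD Mof+/- replicate 1 and 2, with 27.2% and 47.9%, and Itgam alone without HFD Mof+/+ replicate 1, with 0.653%), 2 to 7 between diets in Mof+/+, 0 to 1 between diets in Mof+/- and 0 to 5 in the interaction (5 without HFD Mof+/- replicate 2, with 17.7%). The causes were not tested. Among all genes, calls ranged from 0 (grouping by column name) to 2209 (DESeq2) on SD (main 727), 0 to 7551 on HFD (main 0), 0 to 2982 between diets in Mof+/+ (main 1457), 0 to 2122 in Mof+/- (main 0) and 0 to 3164 in the interaction (main 14).

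With a replicate block, 4 members were called between genotypes on HFD (1.42% of all genes) and 2 between diets in Mof+/- (1.8% of all genes). The numbers did not pair the libraries: the correlation of same-numbered deviations was 0.005 to 0.008 between genotypes on SD, 0.026 on HFD and -0.043 to 0.032 between diets. Under the block, Lyve1 reversed between genotypes on HFD (-0.29), and Adgre1 (-1.55) and Cd14 (-0.086) between diets in Mof+/-.

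The other reversals are given as log2 values. On SD they were Csf1r without the filter (0.0034), Cd68 (-0.53), Csf1r (0.24) and Lyz2 (-0.46) with the length correction, and Adgre1 (0.46), Csf1r (0.20) and Itgb2 (0.72) when grouped by column name. Leaving out each library on SD gave -0.41 to 0.29 for Adgre1, -0.29 to 0.17 for Csf1r, -0.027 to 0.34 for Cd68, -0.13 to 0.86 for Mrc1 and -0.14 to 0.25 for the ratio of Csf1r to Adgre1. It gave -2.30 to 1.33 for Lyve1 on HFD, -0.10 to 0.22 for Cd14 and -11.65 to 1.47 for Adgre1 between diets in Mof+/- (the first against a library at 0, so its size depends on the prior count), -0.19 to 1.03 for Cd163 in the interaction, and -0.11 to 0.29 for the ratio of Lyz2 to Adgre1 between diets in Mof+/+. Tests of the ratios to Adgre1 with HFD Mof+/- were not run. In HFD Mof+/- replicate 1, a level under 2.87 CPM was not detectable at its depth.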

Other observations

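The mast cell markers Cpa3, Kit, Mcpt4, Cma1 and Tpsb2 summed to 20.8 to 54.5 CPM in SD Mof+/+, 88.8 to 174 CPM in SD Mof+/-, 339 and 430 CPM in HFD Mof+/+, and 50.7 and 255 CPM in HFD Mof+/-. In Mof+/+, 3 of the 5 were called higher on HFD and 0 lower by edgeR (6.02% and 3.73% of all genes), and 0 by DESeq2 (10.1% and 9.81% of all genes). On SD, where 5.24% of all genes were called, 0 of 5 were called between the genotypes by edgeR, with 3 of 5 higher in Mof+/- at an unadjusted p under 0.05 (25.7% of all genes passed in either direction) and 1 called higher by DESeq2 (15.9% of all genes in either direction). Kit had lower values in Mof+/- on SD without overlap, as 30.6% of all genes did (log2 -0.79, adjusted p = 0.300 by edgeR).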
